A study of Homo sapiens with 6 samples.

Results

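Desmosomes are spot-like junctions that hold neighbouring epithelial cells together and tie them to the keratin filaments inside each cell. The desmosomal cadherins (desmogleins and desmocollins) span the membrane and bind those of the next cell, the armadillo proteins plakoglobin and the plakophilins sit on their cytoplasmic tails, and desmoplakin links this plaque to keratin. Keratin filaments are built from pairs of a type II and a type I keratin, and simple epithelia such as those of the lung use KRT7 and KRT8 (type II) with KRT18 and KRT19 (type I). The 10 genes described here are the desmosomal genes expressed in simple epithelia, DSG2, DSC2, JUP, PKP2, PKP3 and DSP, together with these 4 keratins. They were chosen by gene symbol, and all 10 of them were found among the 23180 symbols of the RNA-Seq table.

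The samples were A549 cells, an established human lung adenocarcinoma line, at passage 11. In 3 samples the cells had been transfected with siControl, and in 3 samples with an siRNA against KMT9α, the catalytic subunit of the histone methyltransferase KMT9, which is encoded by N6AMT1. The cells were taken 3 days after transfection, and the comparison asks which transcripts differ when KMT9α is knocked down. It rests on 1 cell line and 1 siRNA. Totals on the transcripts used were 15551778 to 18568639.5 counts with siControl and 13740097 to 19832395.5 with siKMT9α.

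Knock-down was seen in the targeted gene. N6AMT1 was at 10.2, 10.8 and 11.5 CPM (counts scaled to the library size and TMM factors) in the siControl samples and at 2.87, 3.22 and 3.35 CPM in the siKMT9α samples. The groups did not overlap, and the log2 fold change was -1.77 (SE 0.12, adjusted p = 1.43e-10). The adjusted p of every gene here was obtained with edgeR (quasi-likelihood test) and adjusted by Benjamini-Hochberg over the 13877 genes tested, and every log2 fold change is of siKMT9α over siControl.

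Because an siRNA guide can also act through short matches to other transcripts, the bases that pair with its seed were looked up in the 10 genes. The target site lies in the coding part of exon 3 of N6AMT1, on the minus strand of GRCh37 at chr21:30254500-30254524, and the capitals mark the 7-mer that pairs with guide bases 2 to 8. The match in DSG2 is shown because it was the single one found in the coding sequences and 3′ UTRs of the 10 genes, in 1 annotated transcript for each. It lies in the coding part of exon 15, on the plus strand at chr18:29125939-29125967.
N6AMT1 target site: acgctgtaacaaagttcACATTCAa
DSG2 coding match: aacacagcttcACATTCActctgtgagca

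The 3′ UTRs of these transcripts held the 7-mer in 0 of the 10 genes, against 11% of the 17986 gene symbols with an annotated 3′ UTR. The 3′ UTRs of the keratins are short, from 58 bases in KRT18 to 237 bases in KRT8, and of the 7 annotated coding transcripts of KRT8 with a 3′ UTR, 1 that was not used here held it. A match of letters does not show that the guide acts there, and the part of the seed in these results was not tested.

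The 250 bases before the deposited transcript start were searched for motifs in each of the 10 genes, and are shown for DSG2, the gene with the largest rise of the 10. In this window no base is annotated as an exon of any transcript. It was read from the plus strand of GRCh37 at chr18:29077777-29078026, and capitals mark the motifs found.
DSG2 upstream: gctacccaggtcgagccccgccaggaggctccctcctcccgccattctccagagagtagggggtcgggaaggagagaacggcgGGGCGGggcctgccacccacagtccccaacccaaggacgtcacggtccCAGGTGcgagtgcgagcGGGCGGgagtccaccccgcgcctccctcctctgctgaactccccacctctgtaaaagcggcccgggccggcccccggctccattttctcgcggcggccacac

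The motifs searched on both strands were CACCTG (the E-box bound by SNAI and ZEB repressors of epithelial genes), GGGCGG (the GC box), TGANTCA (the AP-1 site) and TATAAA (the TATA box). Matches of GGGCGG can overlap each other. CACCTG was found in the windows of 7 of the 10 genes, against 18.5% of the 22144 windows of the same length. GGGCGG was found in 9 of the 10, in every window but that of KRT8, against 49.7% of all windows. TGANTCA and TATAAA were found in 0 of the 10, against 5.18% and 9.39%. The windows of the 10 genes were 59.6% to 82.4% G and C, where the median over all windows was 60.4%. Annotated exons covered 250 window bases in DSP, 187 in JUP, 108 in KRT7, 88 in KRT18, 87 in DSC2 and 47 in PKP3. The windows are therefore not all free of transcribed sequence. These counts describe the letters in the windows and say nothing on binding.

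Of the 10 genes, 3 were higher upon knock-down (DSG2, DSC2 and DSP), 6 were lower (JUP, PKP2, PKP3, KRT8, KRT18 and KRT19) and KRT7 did not pass the test. Changes were common in these samples: 75.6% of all genes tested passed at an adjusted p under 0.05 (37.1% of the genes tested were higher and 38.5% were lower), so that 9 of 10 is not far from the share of all genes. All 10 genes passed the filter on low counts. The counts of the related gene lists below are to be read against the same shares of all genes. For the 10 genes, the median log2 fold change was -0.54, against -0.01 over all genes tested. Their median absolute log2 fold change was 0.77, against 0.47 over all genes tested. At a stricter threshold, P under 1e-08 with an absolute log2 fold change over 0.26, 5 of the 10 genes passed (DSG2, JUP, KRT8, KRT18 and KRT19), against 24.2% of all genes. The siControl and siKMT9α samples did not overlap in 9 of the 10 genes, against 77% of all genes.

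**Figure D1:**
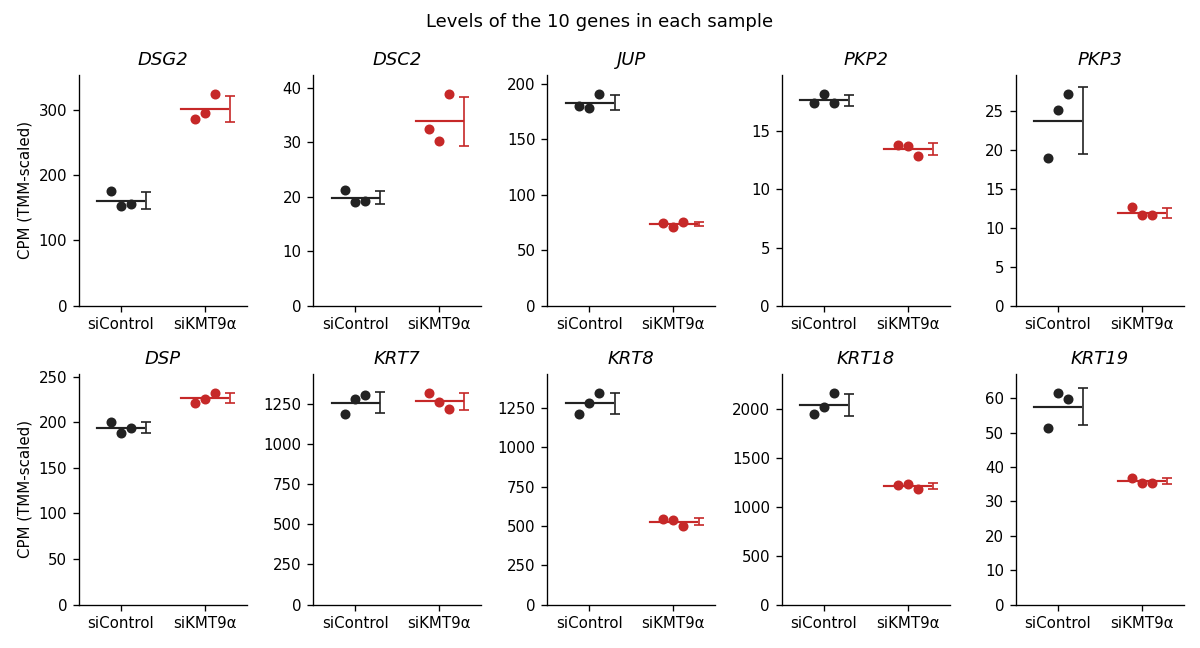
Levels of the 10 genes in CPM scaled by TMM factors (vertical axes, linear and from 0) in each of 3 siControl samples (black) and 3 siKMT9α samples (red), with the mean as a horizontal line and the SD as an error bar. The groups overlap for KRT7 and lie apart for the other 9 genes.

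The transcripts of the desmosomal cadherins DSG2 and DSC2 were higher after knock-down. DSG2, the desmoglein found in all tissues with desmosomes, was at 175.4, 152.0 and 155.1 CPM with siControl and at 285.1, 295.3 and 324.0 CPM with siKMT9α. Every siKMT9α sample lay above every siControl sample, and the mean rose from 160.8 ± 12.7 to 301.5 ± 20.1 CPM (SD, n = 3 each). The log2 fold change was 0.91 (SE 0.06, adjusted p = 5.29e-11), a rise of 1.88-fold. Of all genes tested, 11.7% had a higher log2 fold change. With offsets per sample for GC content and transcript length, the log2 fold change of DSG2 was 0.72. An antisense gene, DSG2-AS1, overlaps the span of DSG2 and had 83 to 112 counts with siControl and 117 to 214 with siKMT9α, against 2461 to 6193.5 counts of DSG2. Whether the counting used the strand is not given in the sources used here, so reads of the 2 genes cannot be told apart in their shared part.

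DSC2, the desmocollin of simple epithelia, was at 21.2, 19 and 19.3 CPM with siControl and at 32.5, 30.3 and 38.9 CPM with siKMT9α. The groups did not overlap, and siKMT9α replicate 3 was the highest. The log2 fold change was 0.78 (SE 0.09, adjusted p = 1.24e-07), and 0.68 with GC and length offsets. The proportion of the cadherins to each other moved little: the ratio of DSG2 to DSC2 counts per kb was 7.65, 7.4 and 7.44 in the siControl samples and 8.12, 9.04 and 7.72 in the siKMT9α samples. Although the ratios did not overlap, the shift was 0.14 on the log2 scale (two-sided exact permutation p = 0.1, adjusted p = 0.117 over the 7 pairs compared). With each sample left out in turn this shift ran from 0.08, without siKMT9α replicate 2, to 0.19. With 3 samples against 3, an exact p cannot go below 0.1.

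DSG2 and DSC2 lie in the cluster of desmosomal cadherin genes on chromosome 18, which holds 7 genes between 28570052 and 29128814 of GRCh37. Another gene of this cluster, DSC3, a desmocollin of stratified epithelia, was at 10.4, 9.11 and 8.92 CPM with siControl and at 16.3, 16.5 and 16.8 CPM with siKMT9α. It was therefore higher as well, with a log2 fold change of 0.80 (SE 0.09, adjusted p = 1.62e-07), and 0.57 with GC and length offsets. The 4 remaining cadherin genes of the cluster, DSC1, DSG1, DSG3 and DSG4, which serve mainly stratified epithelia such as skin, had at most 2 counts in any sample. At this depth a count of 0 allows up to 3 counts, or 0.22 CPM, so that no change in them was detectable.

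The transcripts of JUP, PKP2 and PKP3, which encode armadillo proteins of the plaque, were lower after knock-down. JUP, which encodes plakoglobin, the catenin shared by desmosomes and adherens junctions, was at 180.6, 178.1 and 191.0 CPM with siControl and at 74.6, 71.4 and 75.2 CPM with siKMT9α. All siKMT9α samples were below all siControl samples by a wide margin. The log2 fold change was -1.31 (SE 0.05, adjusted p = 1.63e-14), which was the largest change of the 10 genes in size, closely followed by KRT8. Of all genes tested, 6.23% had a lower log2 fold change. Its other transcript in the table, NM_021991, was at -1.33, beside -1.31 for the transcript used, NM_002230.

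PKP3, a plakophilin found in desmosomes of nearly all epithelia, was at 19, 25.2 and 27.2 CPM with siControl and at 12.7, 11.6 and 11.6 CPM with siKMT9α. The siControl samples were spread widely, with the first the lowest, yet the groups did not overlap. Its mean was 49.9% lower (SE of the log2 fold change 0.11, adjusted p = 1.75e-07). PKP2, the plakophilin of simple epithelia and heart, was at 17.4, 18.2 and 17.4 CPM with siControl and at 13.8, 13.7 and 12.9 CPM with siKMT9α. Its groups did not overlap either, and the change was smaller, with a log2 fold change of -0.40 (SE 0.08, adjusted p = 0.000197). The ratio of PKP2 to PKP3 counts per kb went from 0.577, 0.457 and 0.405 to 0.682, 0.746 and 0.701 without overlap (two-sided exact permutation p = 0.1, adjusted p = 0.117 over 7 pairs), a difference of 0.58 on the log2 scale. With GC and length offsets the log2 fold changes lay closer together, at -0.56 for PKP2 and -0.83 for PKP3.

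DSP, which encodes desmoplakin, had the smallest change of the 6 desmosomal genes among the 10. It was at 200.4, 188.1 and 193.7 CPM with siControl and at 221.6, 226.2 and 232.5 CPM with siKMT9α. The siKMT9α samples were all higher, and the log2 fold change was 0.22 (SE 0.05, adjusted p = 0.000246), a rise of 16.9%. Its direction changed with offsets per sample for GC content and transcript length together, which gave a log2 fold change of -0.18 (adjusted p = 0.000367). With the library size as the only scaling, it was 0.12 (adjusted p = 0.0248). DSP has the longest transcript of the 10 genes, with 9683 bases, and the parts of GC content and of length in the reversal were not tested apart. When the genes tested were divided into 5 groups of equal size by length, the median log2 fold change ran from -0.19 in the shortest (47 to 1683 bases) to 0.23 in the longest (4969 to 82220 bases).

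JUP and DSP thus moved against each other on the scale used, and the ratio within a sample does not depend on the library scaling, although it does depend on any trend with length. JUP to DSP counts per kb were at 2.51, 2.63 and 2.74 with siControl and at 0.937, 0.878 and 0.899 with siKMT9α. Plakoglobin transcripts were more abundant per length than desmoplakin transcripts in every siControl sample and less abundant in every siKMT9α sample (two-sided exact permutation p = 0.1, adjusted p = 0.117 over 7 pairs). The difference was -1.54 on the log2 scale.

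Plakoglobin has a close relative in β-catenin, encoded by CTNNB1, which binds classical cadherins and also acts in Wnt signalling. CTNNB1 was at 200.9, 192.8 and 208.6 CPM with siControl and at 294.1, 281.1 and 291.0 CPM with siKMT9α, a log2 fold change of 0.52 (SE 0.05, adjusted p = 6.63e-09). The ratio of JUP to CTNNB1 counts per kb was 0.953, 0.979 and 0.971 with siControl, close to equal, and 0.269, 0.269 and 0.274 with siKMT9α. The samples of a group lay close together, and the groups were far apart (difference -1.84 on the log2 scale, two-sided exact permutation p = 0.1, adjusted p = 0.117 over 7 pairs).

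**Figure D2:**
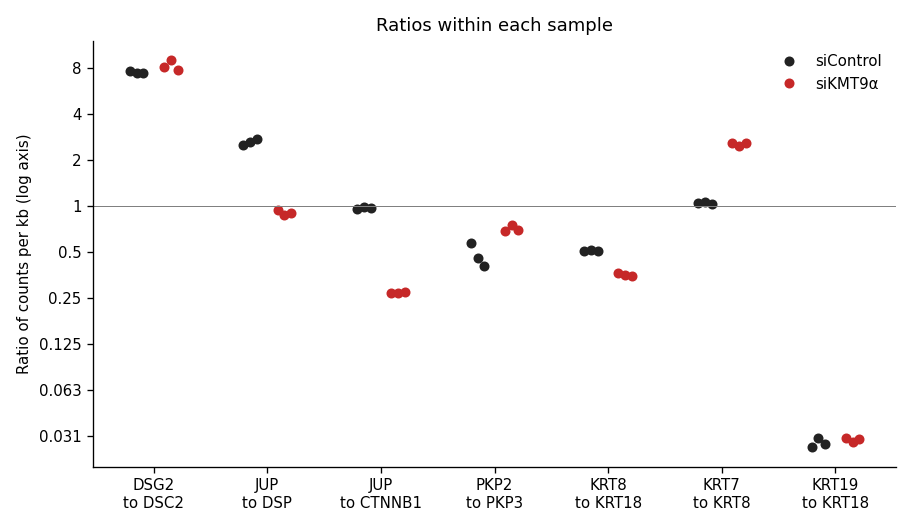
Ratios of counts per kb between 7 pairs of genes within each sample (vertical axis, log scale), for 3 siControl samples (black) and 3 siKMT9α samples (red). JUP falls from above to below DSP, KRT7 moves from about equal to KRT8 to above it, and the ratio of KRT19 to KRT18 overlaps between groups.

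Among the simple keratins, KRT8, KRT18 and KRT19 were lower after knock-down and KRT7 was not called. KRT8, the type II keratin present in nearly all simple epithelia, was at 1213, 1283 and 1346 CPM with siControl and at 543.9, 537.5 and 502.0 CPM with siKMT9α. The groups were widely separated, with a log2 fold change of -1.28 (SE 0.05, adjusted p = 5.19e-14), or 58.8% lower. Of all genes tested, 6.64% had a lower log2 fold change. With GC and length offsets KRT8 was at -1.05. KRT18, the usual type I partner of KRT8, was at 1942, 2019 and 2163 CPM with siControl and at 1220, 1234 and 1177 CPM with siKMT9α. It was lower in every siKMT9α sample, with a log2 fold change of -0.75 (SE 0.05, adjusted p = 1.06e-10), or 40.7% lower.

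KRT19, a small type I keratin without the tail domain of the others, was at 51.4, 61.6 and 59.8 CPM with siControl and at 36.9, 35.5 and 35.3 CPM with siKMT9α. The groups did not overlap, and the log2 fold change was -0.68 (SE 0.07, adjusted p = 2.62e-08). The changes in KRT18 and KRT19, whose transcripts of 1454 and 1460 bases hold 58.5% and 61.8% G and C, were smaller with GC and length offsets, at log2 fold changes of -0.50 (adjusted p = 3.44e-12) and -0.39 (adjusted p = 1.85e-07). Keratins have many processed pseudogenes. Of these only KRT8P41, KRT18P55 and KRT19P2 were looked up, and they had at most 4, 7 and 1 counts in any sample. How the counting assigned reads shared with pseudogenes is not given in the sources used here.

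KRT7, the type II keratin of glandular and ductal epithelia, was at 1188, 1284 and 1309 CPM with siControl and at 1321, 1266 and 1218 CPM with siKMT9α. The samples of both groups were interspersed. The log2 fold change was 0.01 with a 95% interval of -0.10 to 0.12 (SE 0.05, adjusted p = 0.876). With GC and length offsets, however, KRT7 was higher, with a log2 fold change of 0.27 (adjusted p = 7.27e-07), and when only the library size was used for scaling it was at -0.10 (adjusted p = 0.1). That scaling shifted the median log2 fold change of all genes from -0.01 to -0.12, so that KRT7 stayed near the median of all genes.

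**Figure D3:**
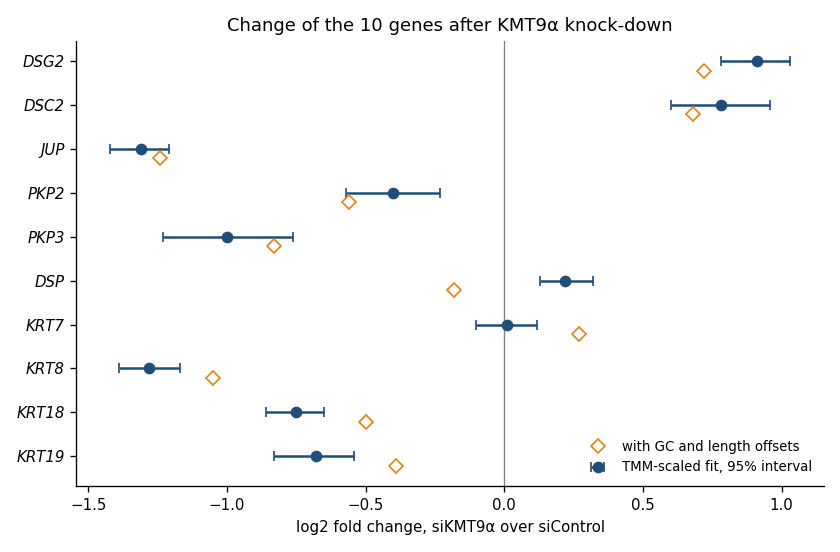
Log2 fold change of siKMT9α over siControl for the 10 genes (horizontal axis), as fitted with TMM factors (blue points, bars are 95% intervals, n = 3 samples each) and with per-sample GC and length offsets (orange diamonds). DSP lies on opposite sides of 0 in the 2 fits, KRT7 moves from 0.01 to 0.27, and the other 8 genes keep their side.

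The keratin pairs were compared within each sample. KRT7 to KRT8 counts per kb were at 1.04, 1.06 and 1.03 with siControl, near equality, and at 2.57, 2.49 and 2.57 with siKMT9α. The groups did not overlap, and the difference was 1.29 on the log2 scale. KRT8 to KRT18 fell from 0.51, 0.519 and 0.508 to 0.364, 0.356 and 0.348, again without overlap. Each of these differences had the smallest two-sided exact permutation p that the design allows, p = 0.1 (adjusted p = 0.117 over 7 pairs). For KRT19 to KRT18, the ratios of 0.0264, 0.0304 and 0.0275 with siControl overlapped those of 0.0301, 0.0286 and 0.0298 with siKMT9α (two-sided exact permutation p = 0.4, adjusted p = 0.4). KRT8 and KRT18, the classical pair, lie side by side on chromosome 12, with 44 kb between them.

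Together, the 4 simple keratins had 2756, 2913 and 3061 CPM per kb with siControl and 1953, 1927 and 1839 CPM per kb with siKMT9α. Of this sum, KRT7 made up 25.6%, 26.2% and 25.4% in the siControl samples and 40.1%, 39% and 39.3% in the siKMT9α samples. KRT8 went from 24.7% in each siControl sample to 15.6%, 15.7% and 15.3%. KRT18 went from 48.5%, 47.7% and 48.6% to 42.9%, 44.1% and 44%. The share of KRT7 was therefore higher and those of KRT8 and KRT18 lower in every siKMT9α sample, while KRT19 had 1.28% to 1.45% with siControl and 1.26% to 1.31% with siKMT9α, and its groups overlapped. The sum of KRT7 and KRT8 (type II) was divided by that of KRT18 and KRT19 (type I). This ratio was 1.01, 1.04 and 1 with siControl and 1.26, 1.21 and 1.21 with siKMT9α (two-sided exact permutation p = 0.1). KRT81 (mean 1621 CPM with siControl) and the other keratins described below are not in these sums. These sums and shares were chosen after the data were seen. In bulk samples like these, fewer cells that carry a transcript and fewer copies of it per cell cannot be told apart.

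**Figure D4:**
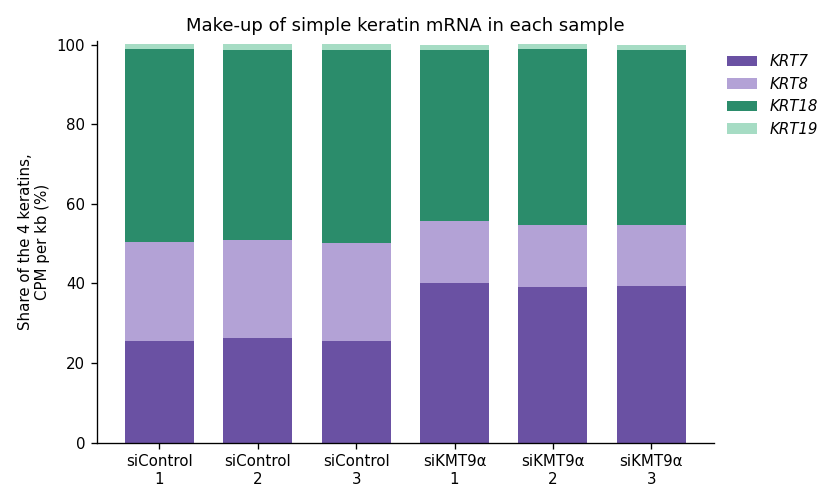
Share of each simple keratin in the summed CPM per kb of the 4 keratins (vertical axis, percent) for each of the 3 siControl and 3 siKMT9α samples. KRT7 takes 25.4% to 26.2% with siControl and 39% to 40.1% with siKMT9α, KRT8 takes 24.7% and 15.3% to 15.7%, and KRT18 takes 47.7% to 48.6% and 42.9% to 44.1%.

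Compared per length, KRT18, KRT7 and KRT8 were by far the most abundant of the 10 genes, while KRT19 lay among the desmosomal genes. In the siControl samples the order of mean CPM per kb was KRT18 (1404), KRT7 (747.9), KRT8 (719.0), JUP (52.6), KRT19 (39.4), DSG2 (28.6), DSP (20), PKP3 (8.55), PKP2 (4.01) and DSC2 (3.81). The ranges of KRT7 and KRT8 overlapped, as did those of PKP2 and DSC2, and the other neighbours were apart. With siKMT9α the order was KRT18 (832.4), KRT7 (752.9), KRT8 (296.4), DSG2 (53.6), KRT19 (24.6), DSP (23.4), JUP (21.2), DSC2 (6.51), PKP3 (4.3) and PKP2 (3.05), and no neighbours overlapped. JUP, first among the desmosomal genes in the siControl samples, was thus below both DSG2 and DSP after knock-down. KRT18 was above 99.7% of all genes tested in siControl, whereas DSC2 was above 35.4%.

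Several of the genes have a second transcript in the table. The counts of the long DSP transcript NM_004415 beyond those of NM_001008844, which lacks part of the rod, were 13.7%, 15.1% and 13.9% of the latter with siControl and 15.5%, 14.3% and 13.8% with siKMT9α. These percentages overlapped (two-sided exact permutation p = 0.6). The counts of the JUP transcript NM_002230 beyond those of NM_021991 were 6.5%, 7.31% and 7.74% of the latter with siControl and 9.24%, 7.9% and 8.82% with siKMT9α. For KRT18, those of NM_000224 beyond NM_199187 were 1.86%, 2.19% and 2.06% with siControl and 1.82%, 1.79% and 1.8% with siKMT9α. In both genes the groups did not overlap (two-sided exact permutation p = 0.1 each), the percentage being higher after knock-down in JUP and lower in KRT18. Fitted one by one, all second transcripts of DSC2, DSP, KRT18 and PKP2 were within 0.01 of the first on the log2 scale. Whether reads in shared bases were counted for both transcripts is not given in the sources used here. The percentages are therefore differences of counts and not proportions of the transcripts. These comparisons were chosen after the data were seen.

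Of the desmosomal genes that are not among the 10, the 3 that passed the filter were all higher: DSC3, PKP4 and PERP. PKP4, a plakophilin relative that is also found at adherens junctions, had a log2 fold change of 0.72 (SE 0.06, adjusted p = 1.97e-09), and PERP, a membrane protein of desmosomes and a p53 target, of 0.16 (SE 0.06, adjusted p = 0.0207). PERP was at 494.2, 432.2 and 436.4 CPM with siControl and at 480.3, 492.8 and 549.7 CPM with siKMT9α, so that its groups overlapped. It was at 0.10 with GC and length offsets (adjusted p = 0.0571). With these offsets, with the library size as the only scaling, or without siControl replicate 2, siControl replicate 3 or siKMT9α replicate 3, the number of higher genes was 2 in place of 3. The other 6 genes of this list of 9 had at most 15 counts in any sample. The median of the 3 genes was 0.72, against -0.01 over all genes tested, of which 37.1% were higher.

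Of 52 keratin symbols other than the 4 simple keratins, hair keratins included, 10 passed the filter, and 8 of these were lower, 0 were higher and 2 did not pass the test. Their median log2 fold change was -0.56, against -0.01 over all genes tested, of which 38.5% were lower. The number of lower keratins was 6 to 9 across the 11 settings that changed the test, scaling, filter, transcript choice or block. The lowest number came from requiring at least 10 counts in every sample. Offsets for GC and length left 7 keratins lower. KRT81, a hair keratin, was at 1523, 1677 and 1662 CPM with siControl and at 1247, 1251 and 1081 CPM with siKMT9α, a log2 fold change of -0.44 (SE 0.06, adjusted p = 1.61e-06). KRT81, KRT83 and KRT86 are close paralogs, and how the counting assigned shared reads is not given in the sources used here, so their separate values are uncertain. KRT80, a type II keratin of epithelia, was at -0.59 (adjusted p = 2.77e-09) and KRT10, a keratin of suprabasal layers, at -0.46 (adjusted p = 2.42e-07). KRT34, a type I hair keratin, was at -1.12 (adjusted p = 0.000271), from a mean of 2.52 to 1.21 CPM. With GC and length offsets KRT81 was at -0.20, KRT86 went from -0.53 to -0.32, and KRT83 from -0.36 to -0.12 (adjusted p = 0.402).

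Transcripts of the plakins and cytolinkers, large proteins that bind filaments to junctions or to other filaments, went the other way. Of 6 listed genes 5 passed the filter, and 5 of 5 were higher, where 37.1% of all genes tested were higher. Their median log2 fold change was 0.54, against -0.01 over all genes tested. PLEC (plectin) rose from 290.5, 291.5 and 325.2 CPM to 663.3, 637.1 and 713.3 CPM, a log2 fold change of 1.15 (SE 0.06, adjusted p = 6.02e-13). MACF1 was at 0.88, DST (dystonin) at 0.54, PPL (periplakin) at 0.54 and EVPL (envoplakin) at 0.42, each with an adjusted p under 0.05. These transcripts are long, and with GC and length offsets PLEC was at 0.85, MACF1 at 0.39, EVPL at 0.27 and DST at 0.11 (adjusted p = 0.03).

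At the adherens junction, the partner of desmosomes, 5 of 9 tested genes were higher, 2 were lower and 2 did not pass the test (median log2 fold change 0.16). CDH1 (E-cadherin) went from 4.25, 2.38 and 3.54 CPM to 8.35, 7.82 and 9.68 CPM, a log2 fold change of 1.34 (SE 0.16, adjusted p = 3.11e-07). CTNND1, the p120-catenin that holds cadherins at the membrane, went the other way, from 330.9, 302.7 and 302.1 CPM to 145.6, 149.1 and 153.7 CPM (log2 fold change -1.06, SE 0.05, adjusted p = 4.26e-13). PVRL2 (nectin-2) was at 1.04, CTNNA1 (α-catenin) at 0.16 and VCL (vinculin) at -0.17. CDH2 (N-cadherin) was at 0.03 (adjusted p = 0.703). With GC and length offsets CTNNA1 was at 0.06 (adjusted p = 0.193) and VCL at -0.41.

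Genes whose products cut, modify or carry keratins and desmosomal proteins were also listed. Of the 10 genes, 3 were higher, 6 were lower and 1 did not pass the test, with a median of -0.25. ADAM10, a protease that sheds the outer part of desmoglein 2 and other cadherins, rose from 60.9, 54 and 47.5 CPM to 223.2, 227.0 and 251.5 CPM (log2 fold change 2.11, SE 0.07, adjusted p = 2.96e-15). All siKMT9α samples lay far above all siControl samples. PRKCA, a kinase that weakens desmosomal adhesion, was at 1.22, and ADAM17 at 0.29. KIF5B, a kinesin motor that carries intermediate filaments and desmosomal proteins, was at -0.46, TGM2, a protein cross-linking transglutaminase, at -0.36 and KLC1, a light chain of the motor, at -0.14. The last had an adjusted p of 0.0125, and with GC and length offsets it was at -0.07 (adjusted p = 0.182).

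Plakoglobin and β-catenin share binding partners, and genes known as targets of β-catenin signalling were therefore read beside them. Of 11 listed genes 6 passed the filter, 3 of them higher, 1 lower and 2 not called (median 0.52). MYC was at 0.96 (SE 0.05, adjusted p = 3.76e-13), CCND1 (cyclin D1) at 1.07 (SE 0.05, adjusted p = 4.26e-13) and ZNRF3 at 1.10 (SE 0.07, adjusted p = 1.71e-11). AXIN2, a feedback inhibitor and common reporter of the pathway, was at 0.09 (adjusted p = 0.582) and RNF43 at 0.04 (adjusted p = 0.713), while TCF7 was lower at -0.92 (adjusted p = 1.4e-05). The genes of this list thus did not move in 1 direction. Without siControl replicate 2, siKMT9α replicate 1 or siKMT9α replicate 2, 2 genes in place of 1 were lower.

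**Figure D5:**
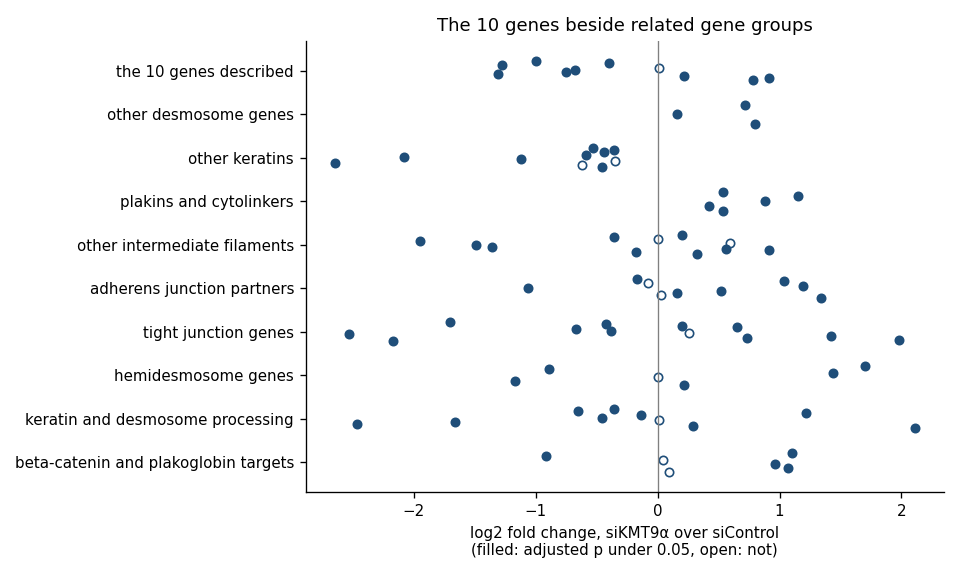
Log2 fold change of siKMT9α over siControl (horizontal axis) for every tested gene of the 10 described and of 9 related groups (rows), filled where the adjusted p was under 0.05 and open where it was not. The plakins and the other desmosome genes all lie to the right of 0, the other keratins all to the left, and the remaining groups on both sides.

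Markers of cell types were read in the same samples. Of 8 epithelial markers, 5 passed the filter. EPCAM was at 3.86 CPM on average with siControl and at 0.593 CPM with siKMT9α, ELF3 was at 291.6 and 330.6 CPM, and GRHL2, a regulator of epithelial genes, had 0 counts in every sample. The summed level of the list, most of it ELF3, was 299.9 to 308.0 CPM with siControl and 335.6 to 353.2 CPM with siKMT9α. The stratified epithelial keratins KRT5 and KRT14 had 0 counts in every sample. The summed level of the 7 stratified markers, most of it KRT10, was 142.9 to 157.0 CPM and 116.3 to 125.3 CPM. Alveolar type 2 markers summed to 1.35 to 2.13 CPM with siControl and 0.731 to 1.1 CPM with siKMT9α, with SFTPA1 at 0 counts. Fibroblast markers summed to 11 to 13.4 and 6.91 to 8.26 CPM with COL1A2 at 0 counts, endothelial markers to 0.598 to 1.05 and 0.0756 to 0.438 CPM, and leukocyte markers to 3.28 to 3.77 and 1.94 to 2.28 CPM with CD3E at 0 counts. The fibroblast, endothelial, leukocyte and alveolar lists thus summed to at most 13.4 CPM in any sample, and the part of the shifts in these lists in the results above was not tested.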

How the data were processed

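RNA-Seq of 6 A549 samples was read from a table in which the authors deposited estimated counts per RefSeq transcript, not normalized and in steps of 0.5. They had aligned reads to hg19 with STAR and counted with HOMER. The table also holds the authors' own fold change (a ratio), p-value and adjusted p-value, which were not used. HOMER's options, the library type and the edgeR test are not given in the sources used here. The 1182 of 38767 rows without symbol and counts were left out.

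For each symbol, the transcript whose counts over all 6 samples had the largest sum was used. Counts were rounded, filtered with filterByExpr, scaled by TMM factors and tested with edgeR 4.0.16 in R 4.3.3 (quasi-likelihood F test, 2 groups, no covariate), with Benjamini-Hochberg adjustment over 13877 genes. The stricter threshold is the one in the study's methods, but the numbers passing it here come from this fit and are not the study's own. The biological coefficient of variation was 4.47%. The siRNA and its time come from the study's methods, and the labels give only its target. The labels call the replicates biological. P-values set the difference between the groups against the spread between these samples, within 1 cell line and with 1 siRNA. Replicates of a group differed by more than sampling noise (chi-square per gene 1.36 to 5.28). GC content, exons and sequences came from GRCh37 with GENCODE 44, to which 22144 symbols were matched. Ratios were compared by exact permutation of the samples (scipy 1.17.1). The fit was tested on simulated data.

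The genes and lists were chosen with earlier results of these data known. Named genes are all 10 genes, N6AMT1 and, per list, up to 6 tested genes with the highest mean CPM and the largest called change in each direction with a mean of at least 1 CPM. Genes at or near 0 counts, pseudogenes and DSG2-AS1 were named in addition. Alternatives were the likelihood-ratio and exact tests of edgeR, DESeq2 1.42.0, limma-voom (limma 3.58.1), RLE factors, library size alone, other filters, other transcript choices, GC and length offsets, leaving out each sample, and the replicate number as a block. Some results under this rule are not reported here.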

Additional observations from a re-analysis of the deposited data

How the results depend on the processing

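The counts of 3 higher and 6 lower genes among the 10 held in each of the 11 settings that changed the test, scaling, filter, transcript choice or block, and with each sample left out in turn. Per-sample GC and length offsets gave 3 higher and 7 lower, because DSP reversed to -0.18 (also -0.18 with the replicate block) and KRT7 became called at 0.27 (also 0.27 with the block). KRT7, near 0, was at -0.10 with library size alone, at -0.00 with at least 10 counts in every sample, and between -0.02 and 0.05 with each sample left out.

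At the stricter threshold, 3357 of all genes passed, against 5962 with the likelihood-ratio test, 5924 with the exact test, 6070 with no filter, 2164 with counts summed over transcripts and 5822 with offsets and block. Of the 10 genes, 5 passed it, against 7 with the likelihood-ratio test, the exact test, DESeq2 or no filter. With limma-voom or counts summed over transcripts, 4 of the 10 passed. The number was 8 with offsets and block and 4 to 7 with each sample left out. Lower β-catenin targets numbered 1, against 3 with no filter and 1 to 2 with each sample left out.

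Same-numbered samples did not deviate together (correlations -0.08, 0.02 and -0.08), so the numbers were not taken as pairs. With the replicate number as a block, 2342 of all genes and 4 of the 10 passed the stricter threshold, and 9 of the 10 still had an adjusted p under 0.05.

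The causes of these changes were not tested. Depth limits the lists: genes at a few counts could not be tested, and counting error grows as levels fall, as for PKP2 with 182 to 335.5 counts.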

Other observations

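Tight junction genes, like the desmosomal genes above, moved in both directions. Of 12 tight junction genes tested, 5 were higher, 6 were lower and 1 did not pass the test, with a median log2 fold change of -0.09. CLDN1 (claudin-1), a sealing claudin, rose from 181.6, 160.6 and 157.5 CPM with siControl to 637.0, 652.7 and 686.0 CPM with siKMT9α (log2 fold change 1.98, SE 0.06, adjusted p = 3.25e-16, edgeR). CLDN3 (claudin-3) fell from 6.56, 6.05 and 7.02 CPM to 0.983, 0.95 and 1.36 CPM (-2.53, SE 0.18, adjusted p = 1.64e-10). OCLN (occludin) was at 0.65 (adjusted p = 4.19e-08) and CLDN12 at 0.73 (adjusted p = 5.73e-09). The scaffold TJP1 was at 0.20 (adjusted p = 0.000831), and with GC and length offsets at -0.12 (adjusted p = 0.0156).

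Hemidesmosomes tie the basal keratin network to laminin-332. Of 6 tested genes of that list 3 were higher, 2 were lower and 1 was not called (median 0.11). Of the laminin-332 chains, LAMA3 was at 1.44 (SE 0.05, adjusted p = 1.63e-14), while LAMB3 was at -0.89 (SE 0.06, adjusted p = 7.9e-11). ITGA6 (integrin α6) was at -1.17 (adjusted p = 3.05e-11) and its partner ITGB4 at -0.00 (adjusted p = 0.965). ITGB4 was at -0.11 with GC and length offsets (adjusted p = 0.14). CD151, a tetraspanin that binds laminin receptors, was at 0.22 (adjusted p = 0.000475) and at 0.49 with these offsets.

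Of 11 other intermediate filament genes tested, 4 were higher, 5 were lower and 2 were not called. PRPH (peripherin), a filament of peripheral neurons, fell from 3.61, 2.62 and 3.87 CPM to 0.756, 0.84 and 0.915 CPM (log2 fold change -1.95, SE 0.23, adjusted p = 2.95e-07). SYNM (synemin) was at -0.36 (adjusted p = 2.93e-05), and at -0.66 with GC and length offsets. The neurofilament genes NEFL and NEFM, named after their values were seen, were at -1.36 (adjusted p = 2.45e-12) and -1.49 (adjusted p = 5.54e-05). INA (α-internexin) was at 0.32 (adjusted p = 6.07e-06). VIM (vimentin), the filament of mesenchymal cells that A549 also expresses, was at 1066, 1128 and 1143 CPM with siControl and at 1310, 1269 and 1266 CPM with siKMT9α (log2 fold change 0.20, SE 0.05, adjusted p = 0.000788), and at 0.33 with GC and length offsets. The nuclear lamins differed among themselves, with LMNB1 at 0.91 (adjusted p = 1.53e-11), LMNB2 at 0.56 (adjusted p = 1.78e-08) and LMNA at -0.18 (adjusted p = 0.00613). With GC and length offsets LMNA was at -0.07 (adjusted p = 0.132).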
